A study of Mus musculus with 2 samples.

Results

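Cells of mouse skin that carried transcripts of both Kit and Gata2 were examined, a pair of genes that together mark mast cells. A cell was selected if it held at least 10 transcripts in all, at least 1 of Kit and at least 1 of Gata2, no Dct or Pmel (melanocytes), no Vwf, Plvap or Cdh5 (vessel endothelium) and fewer than 3 of Krt5, Krt15 and Col17a1 together (basal keratinocytes). The cells were thus selected on measured counts of these 10 genes and of the total, and the levels of these genes are given as a description only. The rule gave 345 of 92679 segmented cells, 217 of 52308 in the Utx-cKO section and 128 of 40371 in the WT section.

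The sections are whole skin of B6/129 female mice that developed normally and received no treatment, fixed, embedded in paraffin and cut at 5 µm. In Utx-cKO, Krt14-Cre removes Kdm6a (Utx), which encodes a demethylase of histone H3, from keratin-14 expressing tissues such as the epidermis and hair follicles, so mast cells lie outside the stated target of the deletion. The WT section is the control, whose alleles the labels do not give. Transcripts were decoded in place by Xenium, an imaging assay, with a panel of 480 genes. Each group is 1 section, so no test across samples was possible. The intervals below are exact 95% intervals for counting error only and leave out differences between animals.

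Mast cells are tissue-resident cells of blood origin that store histamine and proteases in granules and release them when IgE bound to their surface meets its antigen. They depend on stem cell factor, the ligand of the receptor tyrosine kinase Kit, and on the transcription factor Gata2. In skin they lie in the dermis, often along vessels and around hair follicles. Melanocytes also carry Kit and endothelial cells also carry Gata2, which is why the rule asks for both genes and leaves out cells with melanocyte or endothelial genes.

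The cell type name rests on Kit and Gata2. Of 19 mast cell marker genes listed, 3 were on the panel, the pair in the rule and Fcer1a, and none of the granule proteases was measured. The cells are therefore called Kit and Gata2 cells here.

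Each section held 4 strips of tissue, taken as areas of linked cells with at least 1000 cells and numbered from the top of the section. The labels do not say which animal or skin site each strip came from, so strips are pieces of 1 section and not replicates. Other cells, unless stated otherwise, are the 29214 Utx-cKO and 21404 WT cells that met the same minimum and the same exclusions without carrying both genes. Kit and Gata2 cells held a median of 48.0 transcripts in Utx-cKO and 54.0 in WT, and other cells held 32.0 in Utx-cKO and 46.0 in WT. In Kit and Gata2 cells 11365 gene transcripts were counted in Utx-cKO and 7912 in WT, beside 1 negative control probe transcript in Utx-cKO and 0 in WT. The Utx-cKO section held 46229 cells of at least 10 transcripts and the WT section 37513.

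Kit was far more frequent in cells with Gata2 than in cells without it. Among cells that met the exclusions, 29.6% of the 734 cells with Gata2 also carried Kit in Utx-cKO, against 1.32% of the cells without Gata2. In WT, 27.4% of the 467 cells with Gata2 carried Kit, against 1.14% of the cells without it. These values describe the rule and test nothing. Within the selected cells Kit had a median of 2 transcripts in both sections and at most 10 in Utx-cKO and 11 in WT. Gata2 also had a median of 2, with at most 12 in Utx-cKO and 8 in WT.

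Serpinb1a, a serpin that inhibits the serine proteases of granulocytes and mast cells, was not used to choose the cells and gives a reading of the threshold. It was present in 83.9% (78.3 to 88.5) of Kit and Gata2 cells in Utx-cKO and in 89.1% (82.3 to 93.9) in WT. Cells with neither gene carried it in 5.27% in Utx-cKO and 6.98% in WT. Just inside the threshold, the 42 Utx-cKO cells with 1 Kit and 1 Gata2 transcript carried it in 52.4%, and the 25 such WT cells in 72.0%. With a sum of 3 or 4 the share was 80.6% in Utx-cKO and 91.1% in WT, and with 5 or more it was 97.3% in Utx-cKO and 94.8% in WT.

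Just outside the threshold, cells with 1 Kit and no Gata2 carried Serpinb1a in 16.2% in Utx-cKO and 17.5% in WT, and cells with 1 Gata2 and no Kit in 14.9% in Utx-cKO and 13.4% in WT. With 2 or more Kit and no Gata2 the share was 51.7% of 29 Utx-cKO cells and 54.2% of 24 WT cells, and with 2 or more Gata2 and no Kit it was 28 of 54 Utx-cKO cells (51.9%) and 16 of 32 WT cells. In Utx-cKO these shares were close to that of cells with 1 of each gene, and in WT they were lower, with overlapping counting intervals. Cells with 1 of each gene were shallower, at a median of 28.5 transcripts in Utx-cKO and 39.0 in WT, than cells with a sum of 5 or more, at 60.0 in Utx-cKO and 73.0 in WT. The part of this depth in the gradient was not tested.

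**Figure D1:**
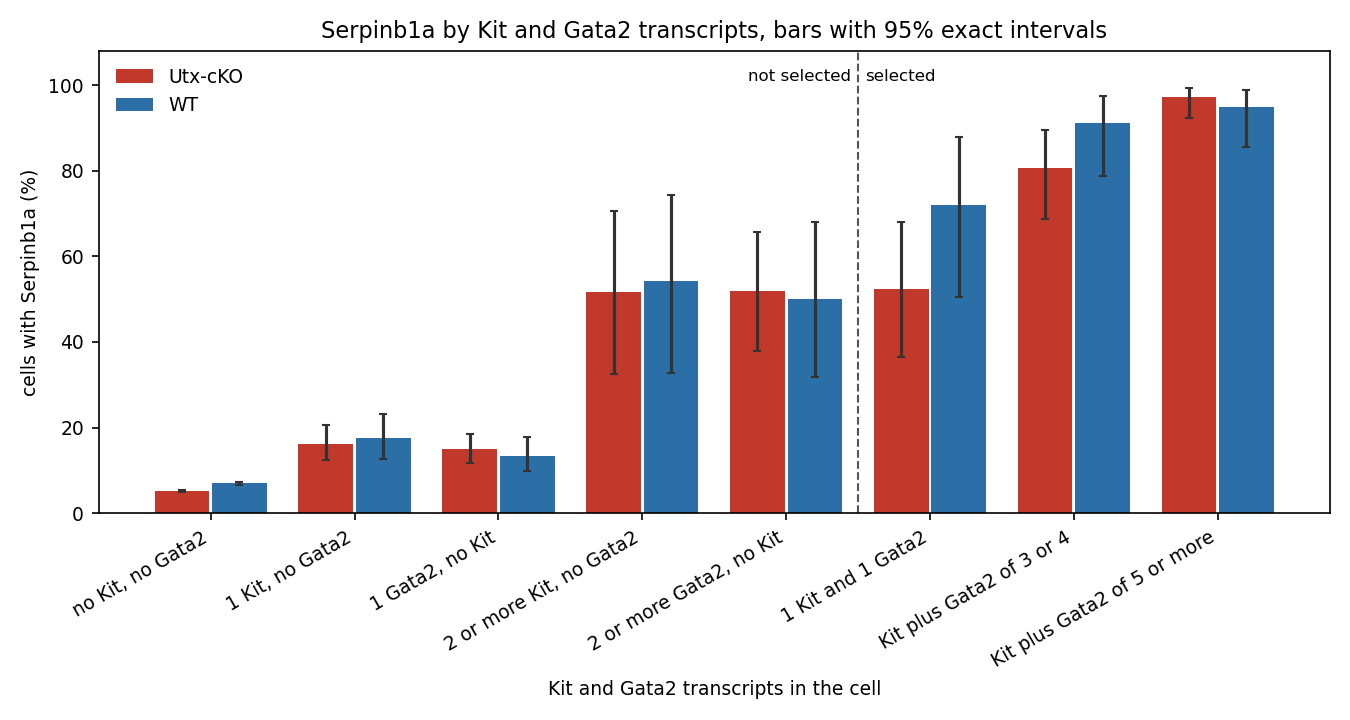
Share of cells with at least 1 Serpinb1a transcript (y axis, %) by the Kit and Gata2 transcripts in the cell (x axis), among cells of at least 10 transcripts that met the exclusions. Utx-cKO bars stand left of WT bars, error bars are exact 95% counting intervals, and the dashed line is the threshold. The share was 5.27% in Utx-cKO and 6.98% in WT without either gene, and 97.3% in Utx-cKO and 94.8% in WT at a sum of 5 or more.

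Of the cells of at least 10 transcripts that carried both genes, the exclusions left 217 of 256 in Utx-cKO and 128 of 172 in WT, and so took a larger part of them in WT. A vessel gene alone left out 32 cells in Utx-cKO and 39 in WT, and 65.6% of these in Utx-cKO and 53.8% in WT carried Serpinb1a. A melanocyte gene alone left out 4 cells in Utx-cKO and 3 in WT. At least 3 basal keratinocyte transcripts alone left out 1 cell in Utx-cKO and 2 in WT, and the minimum of 10 transcripts left out 1 cell in each section. Of the selected cells, 12 in Utx-cKO and 13 in WT held 1 or 2 basal keratinocyte transcripts.

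Kit and Gata2 cells made up 0.469% (0.409 to 0.536) of cells of at least 10 transcripts in Utx-cKO and 0.341% (0.285 to 0.406) in WT, a ratio of 1.38 (1.10 to 1.73). Of cells that met the exclusions they made up 0.737% in Utx-cKO and 0.594% in WT. That ratio was 1.24 (0.992 to 1.56), with equality inside its interval. The difference did not hold across strips. The 4 Utx-cKO strips held 23, 19, 114 and 61 such cells, or 0.184%, 0.212%, 0.753% and 0.634% of their cells. The 4 WT strips held 41, 19, 48 and 19, or 0.393%, 0.285%, 0.429% and 0.210%, and 1 further cell lay outside the strips. Utx-cKO strip 1 lay below all 4 WT strips and Utx-cKO strip 2 below 3 of them, while Utx-cKO strips 3 and 4 lay above all WT strips.

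Without Utx-cKO strip 3, which held 114 of the 217 cells, the ratio was 0.971. The density per area of tissue varied likewise, at 6.88, 6.82, 43.1 and 17.4 cells per mm2 in the Utx-cKO strips, against 11.7, 9.17, 24.8 and 4.97 in the WT strips. The third strip was the densest in both sections. It was also deep in both, with a median of 54.0 transcripts per cell in Utx-cKO and 73.0 in WT, above every other strip of its section. The part of depth in the count of cells was not tested by strip. With every cell thinned to 20 transcripts and the rule applied again, the share was 0.259% in Utx-cKO and 0.180% in WT, a ratio of 1.44.

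**Figure D2:**
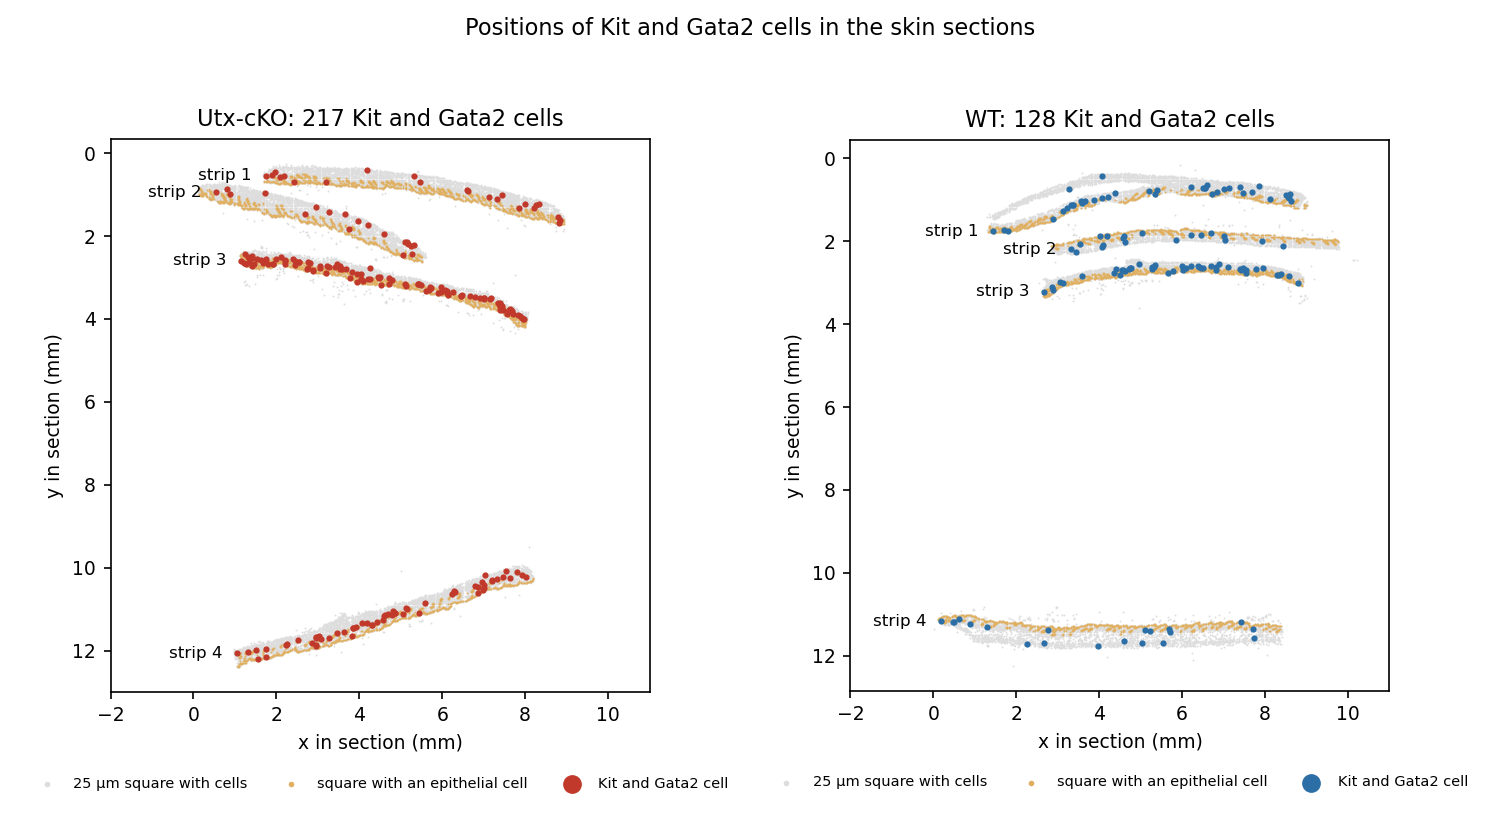
Positions of the Kit and Gata2 cells in the Utx-cKO section (left, red) and the WT section (right, blue), with both axes in mm. Grey marks squares of 25 µm that hold cells and ochre marks squares with an epithelial cell, and strips are numbered. The cells lie along all 4 strips of each section, most densely in strip 3.

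Kit and Gata2 cells were larger than other cells in every strip. Their median segmented area was 131 µm2 in Utx-cKO and 133 µm2 in WT, against 107 µm2 and 115 µm2 in other cells of Utx-cKO and of WT. By strip it was 130, 154, 111 and 157 µm2 in Utx-cKO and 143, 153, 111 and 150 µm2 in WT. The median nuclear area was 23.4 µm2 in Utx-cKO and 25.3 µm2 in WT, against 18.5 µm2 in other Utx-cKO cells and 18.1 µm2 in other WT cells. It too was above that of other cells in all 8 strips. A larger area collects more transcripts, so the selection for both genes and the area cannot be told apart.

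The 12 genes highest against other cells were Serpinb1a, Fcer1a, Slc7a8, Cd69, Il4, Nmb, Lsamp, Arhgdib, Slc2a3, Cd274, Fcer1g and Id2. Transcripts were summed over cells and scaled to equal panel totals (CPM), so that a value is a share of the measured panel and not of the whole RNA. Of 138 genes outside the rule with at least 30 counts in these cells, 35 (25.4%) were at least 1.5 times higher than in other cells of both sections and 14 (10.1%) at least 1.5 times lower. Because the minimum was taken in Kit and Gata2 cells, it favours higher genes. Among the 164 genes for which the level in other cells predicted at least 30 counts, 57 (34.8%) were lower.

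Serpinb1a stood highest of the 138 genes. Its level was 73295 CPM (68402 to 78446, 833 transcripts) in Kit and Gata2 cells of Utx-cKO and 1568 CPM in other cells, a ratio of 46.7. In WT it was 55738 CPM (50657 to 61191, 441 transcripts) in these cells and 1521 CPM in other cells, a ratio of 36.6. By strip it was 40115, 41033, 77944 and 81421 CPM in Utx-cKO and 57716, 56897, 52868 and 57483 CPM in WT. The WT strips were close together, and the Utx-cKO strips fell on both sides of them. With cells thinned to 20 transcripts, 73.2% of these cells in Utx-cKO and 71.4% in WT carried it, against 2.99% of other cells in Utx-cKO and 2.72% in WT. Next to non-member cells within 20 µm, which share the surrounding tissue, it was still higher by 4.72 on the log2 scale in Utx-cKO and 4.42 in WT.

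Serpinb1a cells were not all Kit and Gata2 cells. Of cells that met the exclusions and held at least 3 Serpinb1a transcripts, 131 (61.2%) in Utx-cKO and 70 (44.3%) in WT carried both genes. A further 42 (19.6%) in Utx-cKO and 65 (41.1%) in WT carried neither.

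The promoter windows of Fcer1a and Il4, an IgE receptor gene and a cytokine gene among the leading genes, are shown because both hold GATAA, the core that GATA factors such as Gata2 are known to bind. Capitals mark the match, which reads TTATC where it lies on the other strand. Each window runs from 250 bases before to 50 after the gene start in RefSeq, build GRCm38.p6, and both genes lie on the minus strand. The Fcer1a window is chr1:173227180-173227479 and the Il4 window, 1 of 2 listed for the gene, chr11:53618616-53618915. The other Il4 window holds no match. In the Il4 window shown, the match lies within the 50 bases after the gene start.
Fcer1a: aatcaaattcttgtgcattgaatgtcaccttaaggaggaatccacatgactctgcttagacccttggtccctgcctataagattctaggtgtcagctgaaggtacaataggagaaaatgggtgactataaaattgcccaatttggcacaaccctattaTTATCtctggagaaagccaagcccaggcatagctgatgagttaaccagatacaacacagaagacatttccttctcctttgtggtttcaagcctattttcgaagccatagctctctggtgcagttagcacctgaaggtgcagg
Il4: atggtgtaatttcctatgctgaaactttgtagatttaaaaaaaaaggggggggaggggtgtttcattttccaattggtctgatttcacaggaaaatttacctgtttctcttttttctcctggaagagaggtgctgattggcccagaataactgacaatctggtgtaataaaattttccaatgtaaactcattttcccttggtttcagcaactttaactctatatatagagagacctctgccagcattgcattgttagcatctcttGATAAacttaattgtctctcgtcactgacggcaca

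GATAA on either strand occurs in 8347 of 32851 RefSeq windows of this length (25.4%), and 7682 of 27025 genes hold it in at least 1 window (28.4%). Of the 12 genes named above as highest against other cells, 9 had a listed window and 4 of them held it (Fcer1a, Il4, Arhgdib and Cd274), next to 95 of 357 panel genes with a window (26.6%). Windows of Serpinb1a, Cd69 and Slc2a3 were not used here. A match describes these letters and shows no binding.

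Fcer1a, the alpha chain of the high-affinity IgE receptor and the only mast cell marker outside the rule, was high in Kit and Gata2 cells of both sections but mostly in 1 strip. It was 5983 CPM (4646 to 7585, 68 transcripts) in these cells of Utx-cKO and 243 CPM in other cells, and 2275 CPM (1348 to 3596, 18 transcripts) in those of WT and 152 CPM in other cells. By strip it reached 4776, 3040, 463 and 18233 CPM in Utx-cKO and 1882, 0, 1922 and 5946 CPM in WT. Utx-cKO strip 4 alone held 58 of the 68 transcripts.

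In cells, 30 of 61 (49.2%) carried Fcer1a in Utx-cKO strip 4 and 2 of 114 (1.75%) in Utx-cKO strip 3. The other strips held 4 of 23 and 2 of 19 in Utx-cKO, and 2 of 41, 0 of 19, 5 of 48 and 4 of 19 in WT. The exact interval for 0 of 19 runs up to 17.6%. Other cells carried it in 1.03% in Utx-cKO and 0.934% in WT, so the share in Utx-cKO strip 3 was near that of other cells. With cells thinned to 20 transcripts, Fcer1a was found in 8.59% of Kit and Gata2 cells in Utx-cKO and 1.68% in WT, against 0.563% of other cells in Utx-cKO and 0.414% in WT. Strips 3 and 4 of Utx-cKO had like depths in these cells, at medians of 49.0 and 51.0 transcripts, and like Serpinb1a shares of 88.6% and 90.2%. Within Utx-cKO strip 4, 12 of the 30 cells with Fcer1a carried Cd69 and 12 carried Slc7a8, and of the 31 cells without it 4 carried Cd69 and 7 carried Slc7a8. The cells with Fcer1a were deeper there, at a median of 56.5 transcripts against 47.0, and the part of depth was not tested. In WT, 9.09% of the 11 cells with Fcer1a carried Cd69 and 21.4% of those without it.

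**Figure D3:**
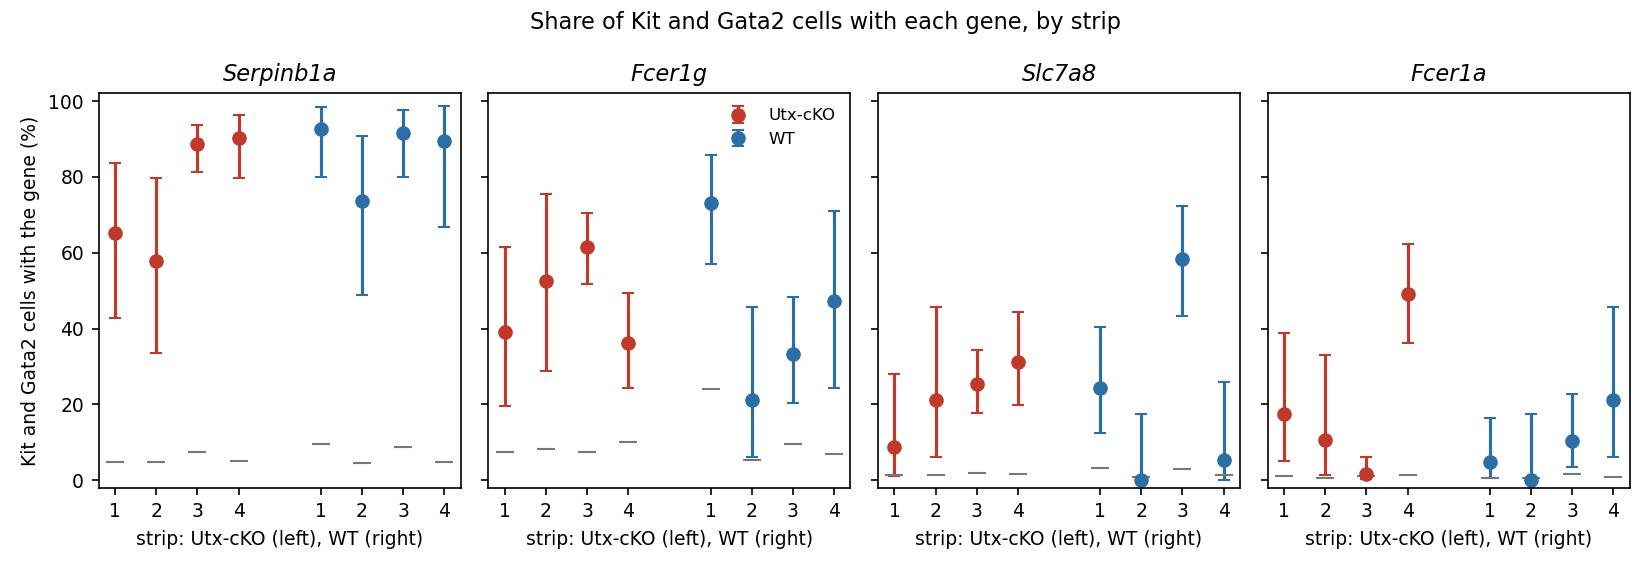
Share of Kit and Gata2 cells with each of 4 genes (y axis, %), by strip, with Utx-cKO strips left of WT strips in each panel. Points carry exact 95% counting intervals and short grey lines give other cells of the same strip. Fcer1a reached 49.2% in Utx-cKO strip 4 and 1.75% in Utx-cKO strip 3, and Slc7a8 reached 58.3% in WT strip 3.

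Fcer1g, the gamma chain that the IgE receptor shares with other Fc receptors, was 17422 CPM in Kit and Gata2 cells of Utx-cKO and 2599 CPM in other cells, and 12639 CPM in those of WT and 3326 CPM in other cells. It was present in 51.2% of these cells in Utx-cKO and 46.1% in WT, against 8.23% of other cells in Utx-cKO and 12.5% in WT. By strip the level was 13372, 21277, 21763 and 9117 CPM in Utx-cKO and 17880, 8621, 7369 and 14866 CPM in WT, above other cells in all 8 strips. Its strip pattern was not that of Fcer1a, since Utx-cKO strip 4 was the lowest Utx-cKO strip for Fcer1g. Fyn, a Src-family kinase that acts downstream of Kit and the IgE receptor, was higher by 1.09 (0.73 to 1.44) on the log2 scale in Utx-cKO and 1.19 (0.78 to 1.58) in WT. These were the only measured genes of the 21 listed for Kit and Fc receptor signalling, and both were at least 1.5 times higher in both sections, as were 25.4% of all 138 genes.

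**Figure D4:**
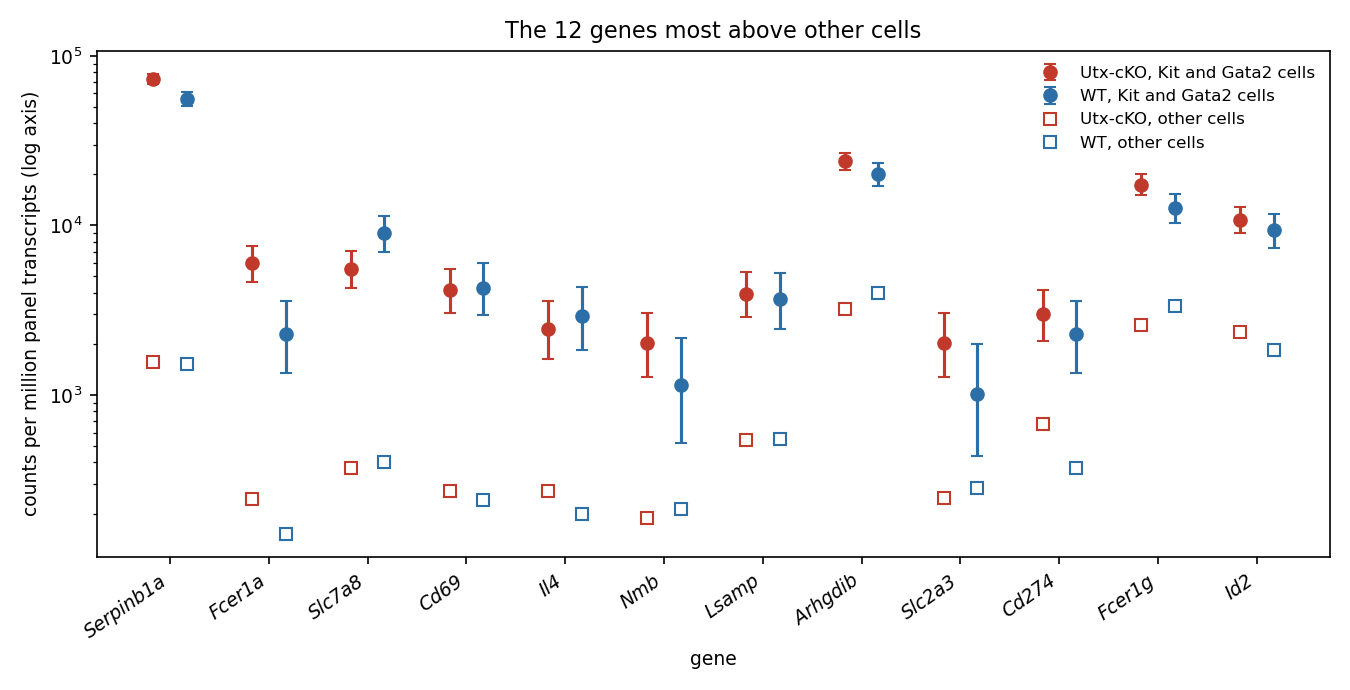
Level in CPM, counts scaled to equal panel totals (log y axis) of the 12 genes highest against other cells (x axis). Filled circles are Kit and Gata2 cells with exact 95% counting intervals, open squares are other cells, and Utx-cKO stands left of WT. All 12 were higher in Kit and Gata2 cells of both sections, Serpinb1a by 46.7 times in Utx-cKO and 36.6 times in WT.

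Slc7a8, which encodes a transporter of neutral amino acids, was 5543 CPM (4260 to 7092) in Kit and Gata2 cells of Utx-cKO and 371 CPM in other cells, and 8974 CPM (7009 to 11319) in those of WT and 401 CPM in other cells. In WT it was concentrated in strip 3, where 28 of 48 cells (58.3%) carried it, against 10 of 41, 0 of 19 and 1 of 19 in WT strips 1, 2 and 4. The Utx-cKO strips held it in 2 of 23, 4 of 19, 29 of 114 and 19 of 61 cells. Without WT strip 3 the log2 ratio over other cells in WT was 3.08, compared with 4.49 with it. Slc3a2, the heavy chain that pairs with such transporters, was among the 35 higher genes. It is named after its value was seen.

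Il4, a cytokine of type 2 immunity made by mast cells and basophils, was present in 12.9% (8.75 to 18.1) of Kit and Gata2 cells in Utx-cKO and 18.0% in WT, against 1.22% of other cells in Utx-cKO and 1.21% in WT. Its level was 2464 CPM in these cells of Utx-cKO and 272 CPM in other cells, and 2907 CPM in those of WT and 199 CPM in other cells. It was above other cells in all 8 strips, and no Kit and Gata2 cell held more than 1 transcript. The transcripts lay over the nucleus in 25 of 28 cases (89.3%) in Utx-cKO and 18 of 23 (78.3%) in WT, against 53.5% and 48.2% of all transcripts in these cells of Utx-cKO and of WT. The same held in other cells, where 85.2% in Utx-cKO and 86.6% in WT lay over the nucleus.

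Il13, a cytokine encoded beside Il4, had 12 transcripts in Kit and Gata2 cells of Utx-cKO and 4 in those of WT and did not reach 30. Its log2 ratio over other cells was 2.91 (1.94 to 3.75) in Utx-cKO and 2.31 (0.42 to 3.70) in WT. Only 1 cell carried both cytokines in Utx-cKO and 3 in WT. Il5 had 3 transcripts in Utx-cKO and 0 in WT. Of 15 measured cytokines and chemokines, Il4 and Cxcl12 reached 30 counts. Cxcl12, a chemokine of stromal cells, had log2 ratios of 0.50 in Utx-cKO and -0.00 in WT.

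Cd69, an early activation antigen of leukocytes, was 4136 CPM in Kit and Gata2 cells of Utx-cKO and 272 CPM in other cells, and 4297 CPM in those of WT and 240 CPM in other cells. It was present in 1 of 23, 2 of 19, 19 of 114 and 16 of 61 cells of the Utx-cKO strips and in 14 of 41, 0 of 19, 11 of 48 and 1 of 19 of the WT strips. The shares ran from 4.35% to 26.2% in the Utx-cKO strips and from 0% to 34.1% in the WT strips and overlapped.

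The other 6 of the 12 highest genes had log2 ratios over other cells from 1.84 to 3.42. Arhgdib, a regulator of small GTPases in blood cells, was 23845 CPM in Kit and Gata2 cells of Utx-cKO and 20096 CPM in those of WT, with a log2 ratio over other cells of 2.88 in Utx-cKO and 2.32 in WT. Id2, an inhibitor of helix-loop-helix factors, had log2 ratios of 2.20 in Utx-cKO and 2.34 in WT, and Cd274, which encodes the checkpoint ligand PD-L1, had 2.14 in Utx-cKO and 2.61 in WT. Lsamp, a membrane protein first described in neurons, had 2.88 in Utx-cKO and 2.74 in WT. Nmb, the peptide neuromedin B, had 3.42 on 23 transcripts in Utx-cKO and 2.43 on 9 in WT. Slc2a3, a glucose transporter, had 3.04 on 23 transcripts in Utx-cKO and 1.84 on 8 in WT.

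Mitf, a transcription factor of both mast cells and melanocytes, was 4839 CPM in Kit and Gata2 cells of Utx-cKO and 1334 CPM in other cells, and 7078 CPM in those of WT and 1620 CPM in other cells. It was carried by 21.7% of these cells in Utx-cKO and 32.8% in WT. Mlana, a melanosome gene that the rule did not use, had 2 transcripts in Utx-cKO and 4 in WT. Of the 6 measured genes listed as transcription factors of mast, blood and neighbouring lineages, 1 besides Gata2 reached the minimum, and it was Mitf. Prox1, a factor of lymphatic endothelium, had 10 transcripts in Utx-cKO and 0 in WT.

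Among genes of eicosanoid synthesis and receptors, through which mast cells make and sense prostaglandins and leukotrienes, 7 of 20 listed were measured and 1 reached 30 counts. Alox5ap, the partner of 5-lipoxygenase, had log2 ratios over other cells of 0.08 in Utx-cKO and -0.94 in WT. Ptger3, a prostaglandin E2 receptor, had 15 transcripts and a log2 ratio of 1.30 (0.45 to 2.03) in Utx-cKO and 12 transcripts and 1.12 (0.16 to 1.93) in WT. Ptgr1 had 9 transcripts in Utx-cKO and 6 in WT. Ptgs2, Alox15 and Ptger2 had at most 2 transcripts in either section, and Ptgds had 0 in both, which was taken to allow up to 3 transcripts.

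Markers of other cell types were present at levels that differed by type. Of 4 basophil genes listed only Il4 was measured, with log2 ratios over other cells of 3.18 in Utx-cKO and 3.87 in WT. The 2 measured innate lymphoid cell genes, Il5 and Il13, together had 1.71 (0.87 to 2.45) in Utx-cKO and 1.01 (-0.88 to 2.38) in WT. The 4 measured macrophage genes together were 8271 CPM in Kit and Gata2 cells of Utx-cKO and 9702 CPM in other cells, and 11502 CPM in those of WT and 13892 CPM in other cells. C1qa, a complement gene of macrophages, was found in 13.4% of these cells in Utx-cKO and 18.8% in WT. Tyrobp, an adaptor of myeloid and natural killer cells, had log2 ratios over other cells of 1.73 in Utx-cKO and 0.64 in WT. The 7 measured T and NK cell genes had list log2 ratios of -1.10 in Utx-cKO and -0.45 in WT, and 2 of them were at 0 in each section.

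Of the 4 measured dendritic or Langerhans cell genes, Wdfy4, needed for cross-presentation in dendritic cells, had 41 transcripts and a log2 ratio of 2.01 in Utx-cKO and 17 transcripts and 1.19 in WT. Clec9a, a receptor of the dendritic cells that cross-present, had 18 transcripts and 2.00 in Utx-cKO and 11 transcripts and 2.25 in WT. Epcam and Ccr7 had at most 7 transcripts in either section. The 4 genes together had a list log2 ratio of 0.67 (0.31 to 1.01) in Utx-cKO and 0.60 (0.04 to 1.10) in WT. The 1 gene of this list with at least 30 expected counts was lower, beside 34.8% of all 164 genes on that basis. The 9 measured fibroblast genes together were 33084 CPM in Kit and Gata2 cells of Utx-cKO and 57870 CPM in other cells, and 49924 CPM in those of WT and 75751 CPM in other cells. Even so, 55.3% of Kit and Gata2 cells in Utx-cKO and 71.9% in WT held at least 1 such transcript. Transcripts of Lum, a fibroblast proteoglycan, lay over the nucleus in 26.8% of cases in Utx-cKO and 28.0% in WT, against 66.8% for Kit in Utx-cKO and 70.9% in WT. How many transcripts came from adjoining cells through the outlines was not tested.

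The lowest genes included genes of keratinocytes and of fibroblast matrix. Of the genes that reached 30 counts in these cells, the 6 lowest were Dst, Axl, Klf4, Itm2a, Fn1 and Col6a3. Dst, a plakin that links keratin filaments to hemidesmosomes, had log2 ratios of -1.33 in Utx-cKO and -1.87 in WT, and Fn1, which encodes fibronectin, had -1.26 in Utx-cKO and -1.10 in WT. Klf4, a factor of epidermal differentiation, had -1.03 in Utx-cKO and -1.66 in WT. Against other cells without keratinocyte genes, Klf4 had -0.56 in Utx-cKO and -0.97 in WT, so it was under 1.5-fold in Utx-cKO. Axl, a receptor kinase of phagocytes and stromal cells, had -1.60 in Utx-cKO and -1.27 in WT, and Col6a3, a collagen of fibroblasts, had -0.86 in Utx-cKO and -1.22 in WT. Against all other cells of at least 10 transcripts, with none of the exclusions, Fn1, Col6a3 and Itm2a were under 1.5-fold in WT, at -0.32, -0.57 and -0.48. By expected counts, Anxa8, Krt17, Elovl4, Krt77, Trim29 and Ly6g6c, genes of epithelial cells, stood lowest, with 0 to 7 transcripts each in either section. The 8 measured granular keratinocyte genes had a list log2 ratio of -3.40 in Utx-cKO and -3.61 in WT, and all 4 with enough expected counts were lower, beside 34.8% of all 164 genes on that basis.

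Genes of chromatin regulators related to UTX were mostly near or above the level in other cells. Kdm6a itself had 24 transcripts in Kit and Gata2 cells of Utx-cKO, 2112 CPM (1353 to 3142), and 26 in those of WT, 3286 CPM (2147 to 4815). By strip it was 955, 0, 2315 and 2515 CPM in Utx-cKO and 3764, 1724, 3525 and 1982 CPM in WT, and the strips overlapped. The log2 ratio of Utx-cKO over WT was -0.64 (-1.50 to 0.22) in these cells, on few transcripts, and -0.27 in other cells. Scaled per cell in place of per panel transcript it was -0.88 (-1.74 to -0.02).

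Kdm6b, the related demethylase JMJD3, was 6951 CPM in Kit and Gata2 cells of Utx-cKO and 2079 CPM in other cells, and 4550 CPM in those of WT and 1918 CPM in other cells. Kmt2c, a methyltransferase found in complexes with UTX, had log2 ratios over other cells of 0.94 in Utx-cKO and 0.93 in WT, and Ezh2, the opposing methyltransferase of H3K27, had 0.87 in Utx-cKO and 0.60 in WT. Kmt2d had 0.30 in Utx-cKO and 0.43 in WT. Kmt2a had 0.32 in Utx-cKO and -0.68 in WT, and Kmt2b had -0.08 in Utx-cKO and 0.05 in WT. Of 9 measured genes, 6 reached 30 counts, and 3 of them were higher in both sections and 0 lower, beside 25.4% higher and 10.1% lower over all 138 genes. Their median log2 ratio over other cells was 0.55, beside 0.14 over all 138 genes. The Y-linked Uty and Kdm5d had 0 transcripts in both sections.

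Between the sections, Nlrc5 and Fcer1a were among the higher genes of Kit and Gata2 cells in Utx-cKO, and Il1r2, Nfe2l2, Mfap4 and Scd1 among the lower ones. Of 138 genes, 17 (12.3%) were at least 1.5 times higher in Utx-cKO and 24 (17.4%) at least 1.5 times lower. For 29 genes the counting interval left out equality. The median log2 ratio over the 138 genes was -0.03. With counts per cell, which carry the lower depth of Utx-cKO, 9 were higher and 40 lower, and with totals that leave out the 10 most abundant genes 22 were higher and 18 lower.

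Nlrc5, an activator of class I antigen presentation genes, had the highest ratio at 1.43 (0.19 to 2.87), on 27 transcripts in Utx-cKO and 7 in WT. Its strips overlapped, at 955, 4559, 1389 and 4401 CPM in Utx-cKO and 1882, 0, 0 and 991 CPM in WT. Leaving out single strips gave ratios from 0.70 without WT strip 3 to 3.49 without WT strip 1. Other cells held more Nlrc5, at 4655, 2943, 1880 and 4901 CPM in the Utx-cKO strips and 4070, 3221, 1799 and 3645 CPM in WT. Kit and Gata2 cells lay above them in only 1 strip. At a quality score of at least 30 no ratio could be formed. How far transcripts of adjoining cells enter the Nlrc5 values was not tested.

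Fcer1a had a log2 ratio of Utx-cKO over WT of 1.40 (0.63 to 2.23), which rested on 1 strip. Without Utx-cKO strip 4 it was -0.90 (-2.17 to 0.30), on 10 transcripts in Utx-cKO and 18 in WT. Hes1, a repressor in Notch signalling, had 1.11 (-0.01 to 2.38), Hmgb2, a chromatin protein, 1.01 (0.24 to 1.85), and Slc2a3 1.00 (-0.21 to 2.37). Slc2a3 fell under 1.5-fold without Utx-cKO strip 4, at 0.41, as did Hmgb2 without WT strip 1, at 0.51, and Hes1 without WT strip 3, at 0.56.

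The 6 lowest genes in Utx-cKO included markers listed for other cell types, Mfap4 and Pdgfra for fibroblasts, Scd1 for sebocytes and Il1r2 for neutrophils. Il1r2, the decoy receptor of interleukin 1, had -2.64 (-4.21 to -1.33) on 6 transcripts in Utx-cKO and 26 in WT, next to -1.11 in other cells. Nfe2l2, which encodes the oxidative stress factor NRF2, had -1.71 (-2.88 to -0.63), on 11 transcripts in Utx-cKO and 25 in WT. Other cells held Nfe2l2 at 2742, 2870, 2429 and 2556 CPM in the Utx-cKO strips and 4124, 2463, 3042 and 3469 CPM in WT. Mfap4, a protein of elastic fibres, had -1.68 (-2.34 to -1.05), and 29 of its 31 Utx-cKO transcripts lay in strip 3. Without WT strip 3 the ratio was -0.99, and without Utx-cKO strip 3 it was -4.41. Mfap4 was lower in Utx-cKO in other cells too. They held it at 3354, 4538, 11895 and 1065 CPM in the Utx-cKO strips and 5528, 6353, 16195 and 4836 CPM in WT. Scd1, a lipid desaturase of sebocytes, had -1.58 (-2.06 to -1.12), with 41 of 121 WT transcripts in strip 2. Dbi, a carrier of acyl-CoA, had -1.06 (-1.96 to -0.19), and Pdgfra, a fibroblast receptor, -0.99 (-1.67 to -0.32). In other cells Scd1 was 16160, 26648, 18794 and 24924 CPM in the Utx-cKO strips and 11590, 35884, 15881 and 23551 CPM in WT. Dbi in them was 3001, 5171, 2877 and 1990 CPM in Utx-cKO and 3160, 7456, 3216 and 4527 CPM in WT. Pdgfra in them was 5277, 8872, 7840 and 7163 CPM in Utx-cKO and 8166, 6861, 11487 and 5622 CPM in WT. Against cells within 20 µm, the log2 ratio in WT was -0.51 for Mfap4, -0.83 for Pdgfra and 0.19 for Scd1. In Utx-cKO it was -1.98 for Mfap4, -1.72 for Pdgfra and -1.02 for Scd1. How far transcripts of adjoining cells enter these values was not tested.

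Of the 12 genes highest against other cells, 3 were at least 1.5 times higher in Utx-cKO (Fcer1a, Slc2a3 and Nmb), 1 was at least 1.5 times lower (Slc7a8) and 8 were under 1.5-fold, beside 12.3% higher and 17.4% lower over all 138 genes. Nmb had a log2 ratio of 0.83 (-0.33 to 2.13). Serpinb1a had a log2 ratio of Utx-cKO over WT of 0.40 (0.23 to 0.56), under 1.5-fold, and Utx-cKO strips lay on both sides of the WT strips. Fcer1g had 0.46 (0.11 to 0.82), Arhgdib 0.25 (-0.04 to 0.54), Id2 0.21 (-0.22 to 0.65), Il4 -0.24 (-1.09 to 0.62) and Cd69 -0.06 (-0.72 to 0.63). Slc7a8 had -0.69 (-1.21 to -0.18), and in WT 56 of its 71 transcripts lay in strip 3. Kit, which the rule used, had 0.05 and Gata2 had 0.43. Kdm6b had 0.61 (0.03 to 1.22).

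In position, Kit and Gata2 cells lay a short distance from the epithelium and closer than other cells to vessels and to cells with macrophage genes. An epithelial cell here held at least 3 transcripts of Krt5, Krt15 and Col17a1, and distances run between cell centres. The median distance to the nearest one was 43.6 µm (36.6 to 48.0) in Utx-cKO and 43.7 µm (32.7 to 57.3) in WT. Other cells lay at 29.1 µm in Utx-cKO and 35.5 µm in WT, and other cells without keratinocyte genes at 43.6 µm in Utx-cKO and 44.2 µm in WT. Cells without keratinocyte genes are those with fewer than 3 transcripts of 20 such genes. Their section medians lay inside the intervals of the Kit and Gata2 cells, but the medians within strips differed, as given below. The rule's own limit on basal keratinocyte transcripts bears on cells that touch the epithelium. Its demand for Gata2 and Kit bears on cells beside endothelial cells and melanocytes, whose transcripts a segmented cell can hold. How far the rule enters the distances to vessel cells and to cells with Dct and Pmel was not tested.

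The spread was narrower than in other cells. Of Kit and Gata2 cells, 41.9% in Utx-cKO and 36.7% in WT lay at 20 to 50 µm, against 26.2% and 27.0% of other cells without keratinocyte genes in Utx-cKO and in WT. Within 20 µm lay 18.4% in Utx-cKO and 18.0% in WT, against 28.0% and 26.5% of those other cells. Among both kinds of cell together, Kit and Gata2 cells made up 1.59% (1.28 to 1.95) at 20 to 50 µm in Utx-cKO and 1.12% (0.822 to 1.48) in WT. Nearer than 20 µm they made up 0.657% in Utx-cKO and 0.561% in WT, and beyond 200 µm 0.572% in Utx-cKO and 0.372% in WT.

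**Figure D5:**
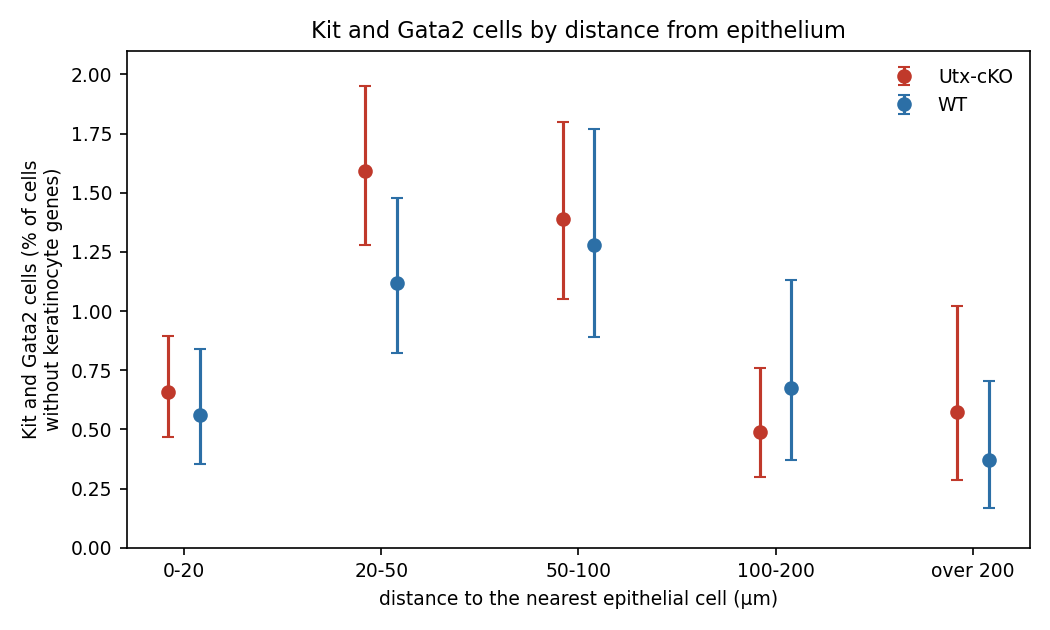
Kit and Gata2 cells as a share (y axis, %) of these and other cells without keratinocyte genes, by distance to the nearest epithelial cell (x axis, µm), with exact 95% counting intervals and Utx-cKO left of WT. The share was highest at 20 to 50 µm in Utx-cKO, at 1.59%, and at 50 to 100 µm in WT, at 1.28%.

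Strips differed in the distance to epithelium. Medians were 56.8, 185, 29.7 and 59.3 µm in the Utx-cKO strips and 58.2, 75.4, 25.3 and 65.9 µm in the WT strips, so the strips overlapped and strip 3 was the nearest in both sections. Other cells without keratinocyte genes lay at 40.2, 62.2, 25.7 and 64.7 µm in the Utx-cKO strips. In the WT strips they lay at 77.7, 42.2, 25.1 and 47.5 µm. Kit and Gata2 cells thus lay nearer than these in Utx-cKO strip 4 and WT strip 1. They lay farther in the other strips, though by little in WT strip 3. Without strip 3 the section medians of Kit and Gata2 cells were 61.1 µm in Utx-cKO and 62.6 µm in WT. Vessel cells, with at least 2 transcripts of Vwf, Plvap and Cdh5, lay at a median of 32.4 µm in Utx-cKO and 30.5 µm in WT, against 47.1 µm and 44.8 µm from other cells without keratinocyte genes in Utx-cKO and in WT. The distance to vessels was shorter than from those cells in 7 of the 8 strips and longer in WT strip 2, at 69.1 µm against 53.6 µm.

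Cells with at least 2 transcripts of C1qa, C5ar1 and Stab1 lay at 21.5 µm from Kit and Gata2 cells in Utx-cKO and 21.7 µm in WT, against 32.6 µm and 28.8 µm from other cells without keratinocyte genes in Utx-cKO and in WT. This held in all 8 strips. Cells with T cell receptor complex genes lay at 95.4 µm in Utx-cKO and 80.3 µm in WT, against 106 µm in Utx-cKO and 88.9 µm in WT. This distance was longer in Utx-cKO strip 2, at 197 µm against 136 µm. It was also longer in WT strip 2, at 124 µm against 103 µm, and in WT strip 3, at 68.1 µm against 64.8 µm. Over whole sections, cells with Dct and Pmel lay nearer, at 128 µm in Utx-cKO and 103 µm in WT, against 143 µm and 139 µm. They lay farther in Utx-cKO strip 2 and WT strip 4. The nearest other Kit and Gata2 cell lay at 71.2 µm in Utx-cKO and 114 µm in WT, in sections that differed in the density of these cells.

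Serpinb1a was lowest in the bin farthest from the epithelium in both sections. In Utx-cKO, Serpinb1a was 90860, 80917, 64589, 40312 and 39146 CPM from the nearest to the farthest of the 5 distance bins. In WT it was 57047, 69419, 49312, 50053 and 23548 CPM. The farthest bin held 11 cells in Utx-cKO and 9 in WT, fewer than in any other bin, and strips enter the bins unequally.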

How the data were processed

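Xenium data of 1 Utx-cKO and 1 WT mouse skin section were used. Per cell, the deposited tables hold transcript counts, positions and areas. Per transcript, they hold the gene, the cell, nuclear overlap and the authors' quality score, which reaches 40. How transcripts were decoded and cells outlined was not given in the sources used here. Transcripts scoring 20 or more were counted in each cell, and these counts equal the deposited counts in all cells. Both sections use 2 cell names in common, which were kept apart. No doublet caller was run, and a segmented cell can hold transcripts of its neighbours.

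The cell rule is given in the opening. The members, gene lists and comparisons were chosen with earlier results of these data known. Counts were summed over cells and scaled to equal panel totals (CPM). Genes outside the 10 in the rule needed 30 counts over both sections, and a ratio of 1.5 either way, in both sections for comparison with other cells, is a size rule. No test was possible with 1 section a group. Intervals are exact 95% Poisson, Clopper-Pearson or conditional binomial ones, and order statistics for medians. The named genes are the 12 highest and 6 lowest against other cells, the 6 highest (1 of them not reported here) and 6 lowest between sections, all measured mast, eicosanoid, Kit signalling and chromatin list members, and leading members of other lists. Strips link cells within 50 µm. Alternatives were scores of at least 30, nuclear transcripts, stricter cell rules, other scalings and gene minimums, thinned cells and leaving out each strip. The comparison with other cells without keratinocyte genes, with cells within 20 µm, by expected counts and per mm2 were chosen after seeing the data. The ratio and its interval were checked on simulated counts. Python 3.11.15, numpy 2.4.6, scipy 1.17.1, pandas 2.3.3 and matplotlib 3.10.9 were used.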

Additional observations from a re-analysis of the deposited data

How the results depend on the processing

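No paired analysis was possible because each group holds 1 section and no replicate number in the labels links the sections. The ratio of the share of Kit and Gata2 cells (Utx-cKO over WT) ran from 0.971 without Utx-cKO strip 3 to 1.69 without Utx-cKO strip 1, and from 1.24 to 1.61 under the other alternatives. Members per mm2, the value of 1.61, was chosen after seeing the data. The 41 genes past 1.5-fold between the sections became 19 with nuclear transcripts and 17 with a minimum of 60 counts, where 59 and 75 genes were compared in place of 138, and ran from 30 to 44 when single strips were left out. The 49 genes past 1.5-fold against other cells became 29 with nuclear transcripts, 29 with 60 counts and 5 with cells thinned to 10 transcripts, where 19 genes were compared, and ran from 35 to 50 without single strips. Against other cells without keratinocyte genes, chosen after seeing the data, 34 were higher and 25 lower, and against cells within 20 µm 31 were higher and 22 lower. Among genes with 30 expected counts 57 were lower, compared with 14. The median distance to the epithelium ran from 36.7 to 61.1 µm in Utx-cKO and from 33.5 to 62.6 µm in WT without single strips. As a difference from other cells over whole sections it was 14.5 µm in Utx-cKO and 8.25 µm in WT. From those without keratinocyte genes it was 0.0188 µm in Utx-cKO and -0.499 µm in WT, while the strips differed, as given above. The Kdm6a log2 ratio ran from -0.84 to -0.49 without single strips and stayed below 0 under all 14 alternatives. Of the named genes' ratios, 1 turned its direction, Fcer1a between the sections, at -0.90 without Utx-cKO strip 4. It was 2.55 without Utx-cKO strip 3 and 2.64 at a quality score of at least 30. Of 648 ratios against other cells, 0 turned. Depth limits the section comparison, since many named genes rest on under 30 transcripts in a section, as does the single section in each group. The cause of these changes was not tested, and several alternatives compared fewer genes or cells.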
